A study of Homo sapiens with 5 samples.

Results

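The genes described here are 10 that encode negative regulators of mitogen-activated protein (MAP) kinase signalling: the dual-specificity phosphatases DUSP1, DUSP4, DUSP5, DUSP6, DUSP8, DUSP10 and DUSP14, and the inhibitors SPRY2, SPRY4 and SPRED1. They were chosen by symbol as the feedback genes of this pathway and found by Ensembl gene ID, and all 10 were among the 19936 genes measured. The cells were LX-2, 1 immortalised human line derived from hepatic stellate cells, which lay down scar matrix in the injured liver. RNA was sequenced 48 h after transfection with control siRNA (control, 2 libraries) or siRNA against LIX1L (siLIX1L, 3 libraries). The labels name no other genotype or agent. They number the libraries within each group and do not say whether the number marks a replicate or a different siRNA. LIX1L encodes a protein with a predicted RNA-binding domain, and the comparison asks which transcripts change when it is lowered. No label states that libraries of the same group are separate cultures, so the p-values cover the spread among libraries alone, and part of it may be technical.

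MAP kinases (ERK, JNK and p38) carry signals from growth factors, cytokines and stress to the nucleus. The signal induces its own inhibitors: DUSP enzymes remove the activating phosphates from the kinases, and Sprouty and SPRED proteins act upstream, between receptor tyrosine kinases and RAF. In stellate cells, platelet-derived growth factor and other mitogens act through this pathway, and the mRNAs of the feedback genes are often used as readouts of it.

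The upstream sequence of 3 members is shown before the values are given, for a motif that 2 of them hold. RefSeq promoter windows on GRCh38.p14 were taken for 8 of the 10 genes, in 11 windows, and none was taken for DUSP4 or DUSP5. Each window holds the 250 bases before a RefSeq transcript start, printed 5′ to 3′ on the strand of the gene. Capitals mark the cAMP response element, TGACGTCA, a motif bound by CREB and related factors and the same on both strands. The stretches are DUSP1 at chr5:172771196-172771445, DUSP8 at chr11:1572272-1572521, and SPRY2, as a member with no such match, at chr13:80341127-80341376, all on the minus strand.
DUSP1: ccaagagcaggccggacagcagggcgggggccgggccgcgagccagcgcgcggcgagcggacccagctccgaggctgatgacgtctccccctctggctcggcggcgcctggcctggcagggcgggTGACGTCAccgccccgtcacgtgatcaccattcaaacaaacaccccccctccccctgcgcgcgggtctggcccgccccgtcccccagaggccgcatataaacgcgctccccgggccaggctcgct
DUSP8: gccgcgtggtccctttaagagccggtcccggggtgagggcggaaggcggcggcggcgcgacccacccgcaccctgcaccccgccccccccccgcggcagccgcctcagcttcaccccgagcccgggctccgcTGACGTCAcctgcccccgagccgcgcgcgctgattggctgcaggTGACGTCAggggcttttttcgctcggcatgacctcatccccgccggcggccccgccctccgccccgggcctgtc
SPRY2: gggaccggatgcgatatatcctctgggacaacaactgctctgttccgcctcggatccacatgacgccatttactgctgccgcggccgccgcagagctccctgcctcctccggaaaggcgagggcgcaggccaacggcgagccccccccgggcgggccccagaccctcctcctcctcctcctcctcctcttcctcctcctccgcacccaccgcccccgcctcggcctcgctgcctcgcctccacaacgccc

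The DUSP1 window held 1 cAMP response element, which began 125 bases before the transcript start. It also held an E-box, CACGTG, at 108 bases and a TATA box, TATAAA, at 30 bases before the start. The DUSP8 window held 2 cAMP response elements, at 118 and 74 bases before the start. Of 35116 RefSeq windows of this length, searched on both strands, 1.65% held at least 1 cAMP response element and 0.0541% held 2 or more, while 6.34% held the E-box and 10.7% the TATA box. For the AP-1 element the pattern TGANTCA was searched, with any base at N, and 6.57% of windows held it. This pattern and the CArG box, present in 1.16%, were in none of the 11 windows. The letters of the 5 motifs were found in no window of DUSP6, DUSP10, DUSP14, SPRY2, SPRY4 or SPRED1. The windows of DUSP6, DUSP14, SPRY4 and SPRED1, and 1 of the 2 of DUSP10, overlap annotated exons, and the inner windows of DUSP10 and SPRY2 lie inside the gene, so these are not directly comparable with those of DUSP1 and DUSP8. These matches are descriptions of letters and not bound sites.

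The 3′ untranslated regions also differ, in AU-rich words that are known to mark short-lived mRNAs. The word TTATTTATT occurred 2 times in the 672 bases of the DUSP1 region (GENCODE 29, longest coding transcript), 1 time each in DUSP4 and DUSP8, and in none of the other 7 members. It was present in 4.61% of the 2189 regions of a length like that of DUSP1 and in 8.25% of 18830 regions overall. The shorter word ATTTA occurred 5.95 times per kilobase in DUSP1, 4.75 in DUSP14, 4.3 in SPRED1, 0.49 in DUSP6 and 0 in DUSP5, against a median of 1.5 over all regions. The first long word of DUSP1 and that of DUSP8 are shown with their flanks, the word in capitals, and that of DUSP4 is not shown.
DUSP1: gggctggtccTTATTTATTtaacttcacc
DUSP8: tttcgattttTTATTTATTtaagctgttc

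The targeted gene was lower in the siLIX1L libraries, and the stellate markers were present throughout. LIX1L was at 26.4 and 35.5 reads per 1000000 (RPM) in the controls and at 6.60, 7.08 and 3.65 RPM in siLIX1L 1, 2 and 3, a 5.36-fold lower mean (limma adjusted p = 0.0384). LIX1L met the minimum level set for limma through the controls alone. EdgeR, whose filter is on reads, called it too (edgeR adjusted p = 0.0388). An antisense RNA gene and the protein-coding gene AC243547.3 overlap LIX1L on the other strand, and strand was not stated for the counts. All 8 stellate markers had at least 10 reads in every library. The summed level of 5 macrophage and leukocyte markers was 10.4 to 36.5 RPM in the controls and 5.05 to 8.54 RPM in siLIX1L, that of 4 cholangiocyte markers was 31.4 to 46.4 against 53.9 to 105 RPM, and TTR and APOB of hepatocytes and LYVE1 of endothelium were at 0. Most macrophage and leukocyte marker reads were of CD14 (131 and 653 reads against 97, 118 and 84). PTPRC had 18 and 11 reads against 6, 10 and 5, and CD68, MARCO and CD163 had at most 4 in any library. Most cholangiocyte marker reads were of SOX9 (625 and 526 reads against 1538, 1539 and 903), while KRT7 had 61 and 40 reads against 22, 16 and 54, and KRT19 and EPCAM had at most 4 reads in any library. Of these markers, edgeR called ACTA2 lower in siLIX1L, and DESeq2 called ACTA2, COL1A2 and CD14 lower and SOX9 higher. Depth was 14856104 to 18294056 reads, and mitochondrial genes took 2.24 and 3.35% of reads in the controls against 1.08 to 1.29% in siLIX1L. The part that these shifts have in the results was not tested, and in bulk RNA fewer cells of a type and less RNA per cell cannot be told apart. SiLIX1L 1 and 2 stood close together, with a biological coefficient of variation of 6.29% between them, against 21.8% or more in every other pair of libraries. The controls differed from each other by 32.4%.

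Among the feedback genes, DUSP1 fell and no member rose by the main test, limma on log2(FPKM + 1) with Benjamini-Hochberg adjustment over 6464 genes. FPKM, the unit deposited for all libraries, is fragments per kilobase and per 1000000 reads. Of the 10 members, 7 reached the minimum of 1 FPKM in 2 libraries, and 1 of these 7 was called lower, against 1.13% of all genes tested called lower and 0.743% called higher. At an unadjusted p under 0.05, 3 of the 7 members were reached: DUSP1 lower, DUSP4 and DUSP5 higher. Over all genes 27.6% reached that level in limma and 25.8% in edgeR, and the unadjusted counts given for gene lists further on are to be read against these shares. EdgeR, run on the reads recovered from the FPKM, tested all 10 and called the same member, DUSP1, against 0.507% of 13026 genes called lower and 0.384% higher. DESeq2 called DUSP1 lower and DUSP4 higher, against 6.24% of 13299 genes lower and 6.34% higher. In edgeR the median log2 difference was 0.19 over the members and -0.04 over all genes tested.

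The libraries of the groups did not overlap for 5 of the 10 members. DUSP1 and DUSP6 were lower in every siLIX1L library than in both controls, as were 21.8% of the genes tested with edgeR. DUSP4, DUSP5 and SPRED1 were higher in every siLIX1L library, as were 22.2% of those genes. Shares of 2 and 3 in 10 are near these backgrounds, so the lack of overlap by itself sets no member apart.

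**Figure D1:**
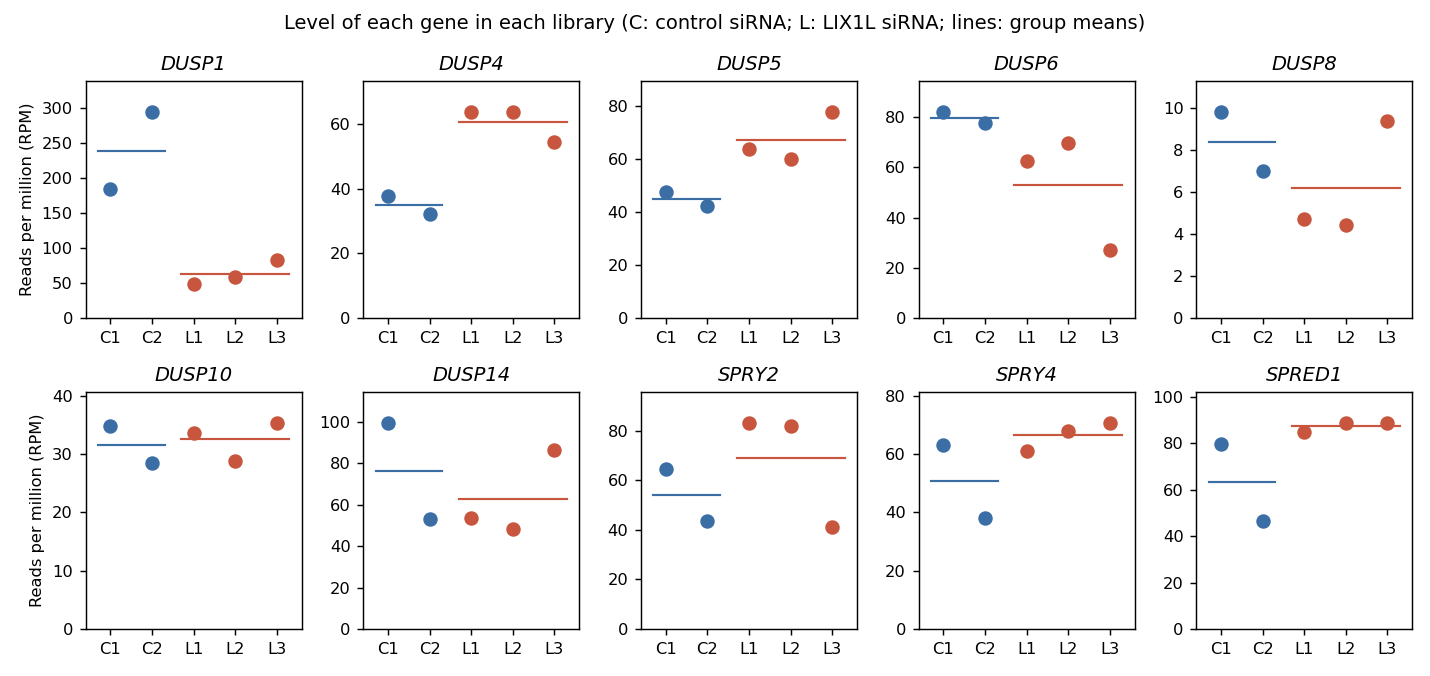
Level of each of the 10 genes in RPM (vertical axis, from 0, its own scale in each panel) in control libraries 1 and 2 (C1, C2, blue) and siLIX1L libraries 1, 2 and 3 (L1 to L3, red); points are libraries and lines group means. DUSP1 is at 184 and 294 RPM in the controls and at 49.1 to 82.9 RPM in siLIX1L, while DUSP4 is at 32.1 and 37.7 RPM in the controls and at 54.4 to 63.6 RPM in siLIX1L.

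Of the nuclear inducible phosphatases, DUSP1 fell, and DUSP4 and DUSP5 had higher values in siLIX1L that did not pass limma. DUSP1 (ENSG00000120129, GRCh38 chromosome 5, 172768090 to 172771195, minus strand) is an immediate-early gene whose enzyme acts on p38, JNK and ERK. It was at 184 and 294 RPM in control 1 and 2 and at 49.1, 58.3 and 82.9 RPM in siLIX1L 1, 2 and 3. Every siLIX1L library was lower than both controls, and the gap between the nearest libraries of the groups was larger than the range within siLIX1L and a little smaller than the range between the 2 controls. Mean levels of 239 ± 78.1 RPM (SD, n = 2) with control siRNA and 63.4 ± 17.4 RPM (SD, n = 3) with siLIX1L gave a 3.77-fold fall.

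The limma difference of DUSP1 on the log2(FPKM + 1) scale was -1.86 with an SE of 0.30 and an adjusted p of 0.0443, and the edgeR adjusted p was 0.0493. With each library left out in turn the fall was 2.90-fold without control 2 to 4.64-fold without control 1. The call sat near the threshold: the limma adjusted p was 0.0602 without control 2, 0.0715 to 0.228 without any single siLIX1L library, 0.182 with siLIX1L 1 and 2 averaged, 0.0502 with median-ratio scaling, 0.114 with no minimum level and 0.0741 with a length and GC trend removed. An antisense gene, AC022217.3, spans the whole of DUSP1, and reads of the pair cannot be told apart without strand.

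DUSP4 (ENSG00000120875) encodes a nuclear phosphatase of ERK and JNK. It was at 37.7 and 32.1 RPM in the controls and at 63.6, 63.6 and 54.4 RPM in siLIX1L. All siLIX1L libraries were higher, and each group was tight. The mean was 1.73-fold higher in siLIX1L, with a limma difference of 0.57 on the log2(FPKM + 1) scale, an SE of 0.13 and an adjusted p of 0.0679. The edgeR adjusted p was 0.0739 and the DESeq2 adjusted p 0.00858. The ratio of means was 1.88 without control 1 and 1.61 without control 2, each with 1 control library left.

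DUSP5 (ENSG00000138166, GRCh38 chromosome 10, 110497838 to 110511544, plus strand) encodes a nuclear phosphatase specific to ERK. Its level was 47.5 and 42.4 RPM in the controls against 63.8, 59.9 and 77.7 RPM in siLIX1L, all higher than both controls. The mean was 1.49-fold higher, with adjusted p = 0.124 in limma, 0.143 in edgeR and 0.0995 in DESeq2. In contrast to DUSP1, which was highest in control 2, both DUSP4 and DUSP5 were a little lower in control 2 than in control 1.

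DUSP6 (ENSG00000139318, GRCh38 chromosome 12, 89347232 to 89353271, minus strand) is the cytoplasmic, ERK-specific phosphatase of the set. It was at 82.1 and 77.5 RPM in the controls and at 62.4, 69.7 and 27.3 RPM in siLIX1L 1, 2 and 3. Both controls were higher than all siLIX1L libraries, but siLIX1L 3 was 2.42-fold below the mean of siLIX1L 1 and 2. The mean was 1.5-fold lower in siLIX1L and 1.21-fold lower without siLIX1L 3. The limma difference was -0.62 with a 95% interval of -1.48 to 0.24 on the log2(FPKM + 1) scale and an adjusted p of 0.302, and the edgeR adjusted p was 0.327. Antisense genes overlap parts of DUSP6, DUSP8 and SPRY4 as well.

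The phosphatases that act mainly on JNK and p38, DUSP8 and DUSP10, were under the limma minimum, and neither passed edgeR or DESeq2 or reached an unadjusted p under 0.05 there. DUSP10 (ENSG00000143507) was at 34.8 and 28.4 RPM in the controls and at 33.6, 28.8 and 35.4 RPM in siLIX1L, so the groups overlapped nearly in full. Its ratio of siLIX1L to control was 1.03, and limma on log2(RPM + 0.5) gave a 95% interval of 0.738 to 1.44 for the ratio. DUSP8 (ENSG00000184545), the lowest member, was at 9.81 and 6.997 RPM in the controls and at 4.71, 4.44 and 9.38 RPM in siLIX1L. SiLIX1L 1 and 2 were below both controls and siLIX1L 3 was between them, and the edgeR adjusted p was 0.519.

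DUSP14 (ENSG00000276023) is a small phosphatase without the kinase-binding domain of the others. It was at 99.6 and 53.0 RPM in the controls and at 53.7, 48.3 and 86.5 RPM in siLIX1L. Control 1 and siLIX1L 3 were high and the other libraries low, so the spread within each group was as large as the gap between them. Its limma adjusted p was 0.673, and its direction turned from lower to higher when control 1 was left out, with a log2(FPKM + 1) difference of 0.15.

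None of the Sprouty and SPRED genes passed edgeR or DESeq2 or reached an unadjusted p under 0.05 there, and all 3 means were higher in siLIX1L. SPRY2 and SPRY4 did not reach these levels in limma either, and SPRED1 was under the limma minimum. SPRY2 (ENSG00000136158, GRCh38 chromosome 13, 80335976 to 80340951, minus strand), a membrane-associated inhibitor of receptor tyrosine kinase signalling, was at 64.6 and 43.3 RPM in the controls and at 83.2, 81.8 and 41.3 RPM in siLIX1L. SiLIX1L 1 and 2 were higher than both controls and siLIX1L 3 was lower than both. The ratio of means was 1.27, and 1.53 without siLIX1L 3, with a limma adjusted p of 0.610. SiLIX1L 3 was thus the lowest library for SPRY2 as for DUSP6.

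SPRY4 (ENSG00000187678), a related inhibitor, was at 63.2 and 38.2 RPM in the controls and at 61.2, 67.9 and 70.9 RPM in siLIX1L. Control 2 was low and control 1 was within the siLIX1L range. The mean was 1.31-fold higher, and the limma adjusted p was 0.302. With 1 control library left, the mean was 1.75-fold higher without control 1 and 1.05-fold higher without control 2. SPRED1 (ENSG00000166068), which brings the RAS-inactivating protein neurofibromin to the membrane, was at 79.9 and 46.5 RPM in the controls and at 85.0, 89.0 and 88.9 RPM in siLIX1L. The siLIX1L libraries were close together and above both controls, of which control 1 was near. The mean was 1.39-fold higher, with an edgeR adjusted p of 0.259, and of 0.0250 without control 1.

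**Figure D2:**
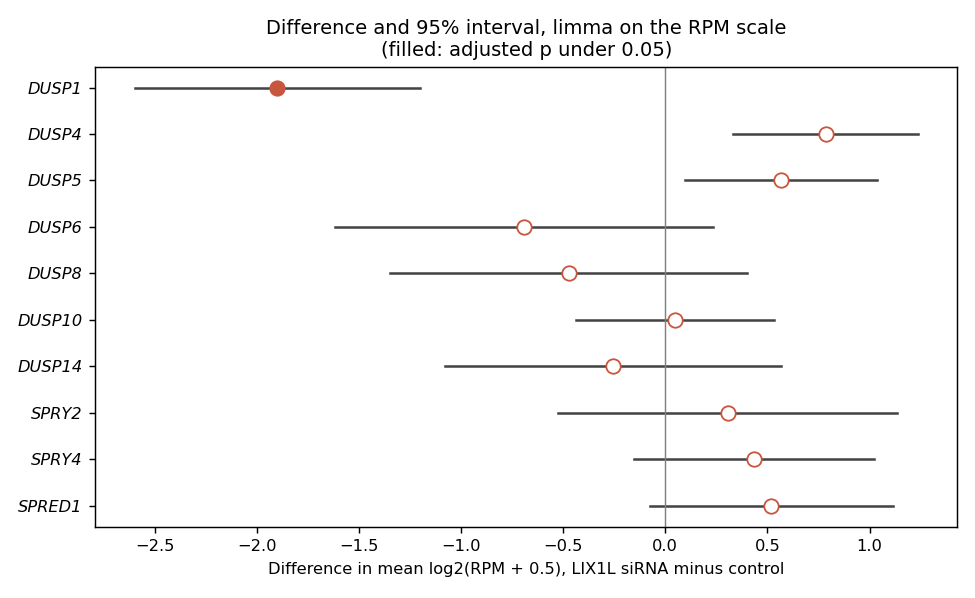
Difference in mean log2(RPM + 0.5), siLIX1L minus control (horizontal axis), for each of the 10 genes, with points for the estimate and lines for its 95% interval from limma on that scale; a filled point has an adjusted p under 0.05. DUSP1, at -1.90, is the single filled point; the intervals of DUSP4 (0.33 to 1.24) and DUSP5 (0.10 to 1.04) lie above 0 and all other intervals include 0.

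Counting error was small beside the spread between libraries. For DUSP1 the ratio of summed reads, scaled by the summed library totals, was 0.264. Its exact 95% interval for counting error was 0.253 to 0.275, whereas limma on log2(RPM + 0.5) gave an interval of 0.165 to 0.435. For DUSP8, the member with the fewest reads, the counting interval was 0.652 to 0.910 around a ratio of 0.770, scaled in the same way. PCR copies are not separate molecules, so these intervals cover counting error only.

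The nuclear inducible phosphatases did not all have differences in 1 direction. Per library, the mean of DUSP1, DUSP4 and DUSP5 on the log2(RPM + 0.5) scale, relative to the control mean, was -0.05 and 0.05 in the controls against -0.29, -0.24 and -0.02 in siLIX1L. For DUSP6 with SPRY2, SPRY4 and SPRED1 the mean was 0.27 and -0.27 in the controls against 0.27, 0.36 and -0.21 in siLIX1L, which overlapped. The first mean minus the second was -0.32 and 0.32 in the controls against -0.56, -0.60 and 0.19 in siLIX1L, so the groups overlapped, with a mean difference between groups of -0.32. It was -0.64 without control 1 and -0.01 without control 2. After DUSP1 was seen to be lower, DUSP4 and DUSP5 were also averaged without it, giving 0.10 and -0.10 in the controls against 0.68, 0.64 and 0.71 in siLIX1L, whose lack of overlap follows from that of each gene. These means are given with no test, since the genes were chosen with results known.

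Read ratios within a library, which do not depend on scaling between libraries, are given for the phosphatases. DUSP1 had 4.87 and 9.15 reads per DUSP4 read in the controls and 0.772, 0.917 and 1.52 in siLIX1L. DUSP4 had 0.459 and 0.415 reads per DUSP6 read in the controls and 1.02, 0.913 and 1.99 in siLIX1L. Neither ratio overlapped between the groups, which follows from the lack of overlap of each gene. DUSP1 per DUSP6 read was 2.24 and 3.795 in the controls against 0.787, 0.837 and 3.04 in siLIX1L, and this ratio overlapped in siLIX1L 3, the library low in DUSP6.

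**Figure D3:**
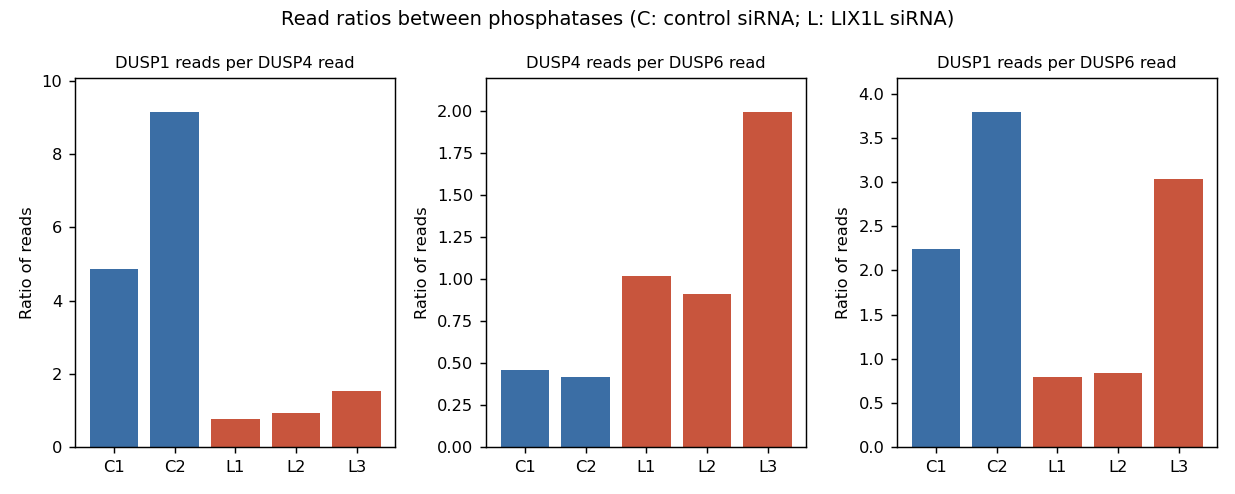
Ratio of reads between 2 phosphatase genes within each library (vertical axes, bars from 0), for control libraries C1 and C2 (blue) and siLIX1L libraries L1 to L3 (red). DUSP1 per DUSP4 is 4.87 or more in the controls and 1.52 or less in siLIX1L. DUSP4 per DUSP6 is 0.459 or less in the controls and 0.913 or more in siLIX1L. Both gaps follow from the lack of overlap of each gene, and DUSP1 per DUSP6 overlaps.

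Per kilobase of mRNA, DUSP1 was the most abundant member in both controls and had the highest mean in siLIX1L. Levels between genes are compared as RPM per kilobase of the longest coding transcript, since the deposited lengths are gene spans with introns. In the controls DUSP1 was at 118 ± 38.7 (SD, n = 2), DUSP14 at 34.6 ± 14.9, SPRY2 at 19.9 ± 5.55, DUSP6 at 18.1 ± 0.732 and DUSP5 at 17.6 ± 1.41. DUSP10 at 11.8 ± 1.7, SPRY4 at 10.3 ± 3.59, SPRED1 at 8.12 ± 3.03, DUSP4 at 6.31 ± 0.711 and DUSP8 at 1.88 ± 0.445 followed. The library ranges of DUSP1, DUSP14 and DUSP8 overlapped those of no neighbour, whereas neighbours from SPRY2 to DUSP5 and from DUSP10 to DUSP4 overlapped.

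In siLIX1L DUSP1 was at 31.4 ± 8.64 (SD, n = 3), beside DUSP14 at 28.5 ± 9.37, DUSP5 at 26.3 ± 3.67 and SPRY2 at 25.4 ± 8.80, and the ranges of these 4 genes overlapped. The first place of DUSP1 there rested on siLIX1L 3 (41.0 against 15.2 for SPRY2), since SPRY2 was above DUSP1 in siLIX1L 1 (30.7 against 24.3) and siLIX1L 2 (30.2 against 28.9). DUSP1 made up 47.9% of the summed member level in the controls and 18.2% in siLIX1L. By group means DUSP5 was in place 5 in the controls and 3 in siLIX1L, DUSP6 in place 4 and 7, and DUSP4 in place 9 in both. The place of DUSP6 rested on siLIX1L 3 (6.20), since in siLIX1L 1 and 2 (14.2 and 15.8) it was above SPRY4 (12.4 and 13.8) and DUSP10 (12.6 and 10.8).

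**Figure D4:**
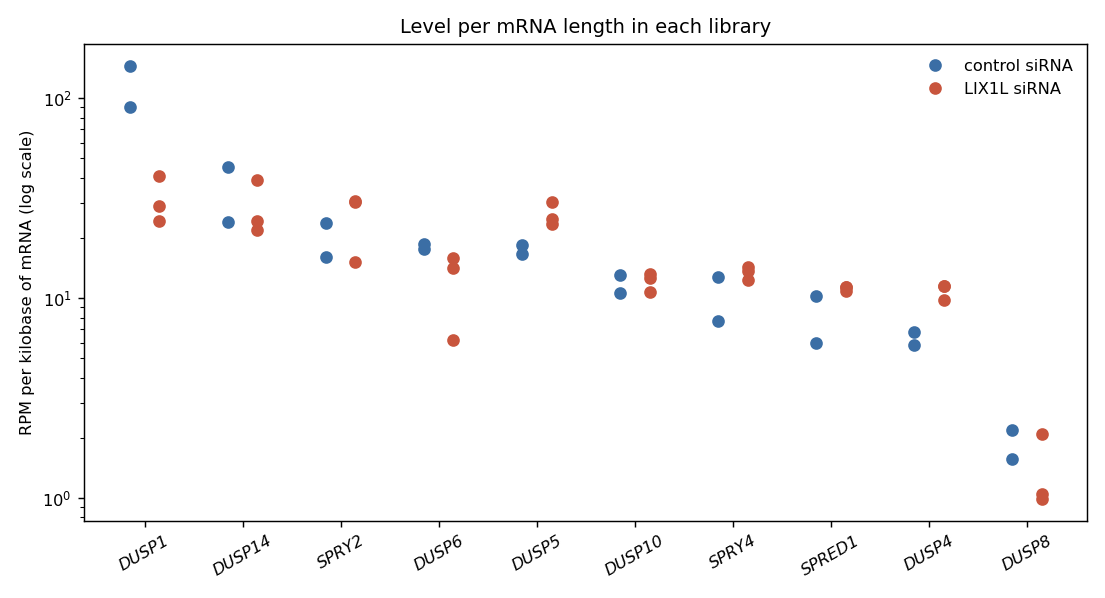
RPM per kilobase of mRNA (vertical axis, log scale) of each gene in each library, ordered by the control mean; points are control (blue) and siLIX1L (red) libraries. DUSP1 stands above the other genes in the controls (91.0 and 146) and lies among DUSP14, SPRY2 and DUSP5 in siLIX1L (24.3 to 41.0).

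Transcripts outside the members that ERK signalling is known to induce included several that fell. Of 20 such genes, 15 were tested with limma. Over all genes tested, 1.13% were called lower and 0.743% higher, and of these 15, 5 fell and 1 rose. Their median log2(FPKM + 1) difference was -0.73 against -0.01 over all genes tested. Those that fell were FOS, FOSB and JUN, which encode AP-1 subunits, EGR1, an immediate-early zinc finger factor, and IER3, with JUN named after its values were seen. CCND1, the gene of cyclin D1, rose. EdgeR called FOS, FOSB, IER3 and CCND1 and not EGR1 or JUN. The genes called changed with the library left out. Without control 2, EGR1 and JUN were no longer called. FOS and FOSB were not tested with limma when either control was left out, and each of those fits had 1 control library. The fall of EGR1 in mean RPM was 35.1-fold without control 1 and 10.8-fold without control 2. Without any single siLIX1L library no gene of the list passed limma, nor did any other gene tested.

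FOS was at 14.6 and 57.4 FPKM in the controls and at 0.701, 0.747 and 0.422 FPKM in siLIX1L, so every siLIX1L library was far below both controls, and the controls differed widely. EGR1 was at 72.2 and 234 FPKM in the controls and at 8.13, 10.3 and 1.54 FPKM in siLIX1L, with the same order of the controls as FOS and DUSP1. IER3 fell 2.77-fold in mean RPM (limma adjusted p = 0.0384) and FOSB 10.4-fold (limma adjusted p = 0.0389). FOS and FOSB were under 1 FPKM in every siLIX1L library and so met the limma minimum through the controls alone; both were also called by edgeR, whose filter is on reads. CCND1 was at 24.1 and 11.04 FPKM in the controls and at 74.5, 78.1 and 66.6 FPKM in siLIX1L, 4.16-fold higher in mean RPM (limma adjusted p = 0.0394), opposite in direction to DUSP1.

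Among 18 other dual-specificity and MAP kinase phosphatases, 8 were tested with limma, DUSP15 fell and none rose. DUSP15, a small phosphatase, was at 3.36 and 1.88 FPKM in the controls and at 0.632, 0.564 and 0.632 FPKM in siLIX1L, 4.3-fold lower in mean RPM (limma adjusted p = 0.0441). It met the minimum of 1 FPKM through the controls alone, where it was high; edgeR, which filters on reads, called it too. At an unadjusted p under 0.05, limma reached 1 higher and 2 lower of these genes. DESeq2 called DUSP15 and DUSP7 and STYXL1 in addition, 1 of the 3 higher and 2 lower.

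Of 21 other Sprouty, SPRED and receptor feedback genes, 6 were tested with limma and none passed. At an unadjusted p under 0.05, limma reached 1 of these and edgeR 6 of 21, all higher, a share near the 25.8% of all genes in edgeR, and DESeq2 called 4 higher (RASA2, RASA1, RASAL2 and SOCS5). SOCS5, which limits receptor signalling, was at 0.922 and 1.104 FPKM in the controls and at 1.68, 1.71 and 1.47 FPKM in siLIX1L (limma adjusted p = 0.0970). ERRFI1, an inhibitor of the epidermal growth factor receptor, was at 2.93 and 2.90 FPKM in the controls and at 3.87, 3.92 and 3.26 FPKM in siLIX1L (limma adjusted p = 0.268). In edgeR, 15 of 21 genes here had a higher value, as did 6 of 10 members and 8 of 16 of the other phosphatases. Over all genes, 6159 of 13026 had a higher value.

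The cascade itself gave no call in the main limma fit or in edgeR with all libraries. Of 25 ERK cascade genes, 15 were tested with limma, 4 were reached at an unadjusted p under 0.05, and RRAS, a RAS-related GTPase, was nearest (13.3 ± 2.89 FPKM, n = 2, against 6.07 ± 0.327 FPKM, n = 3; limma adjusted p = 0.0503). LAMTOR3, a scaffold of the cascade, followed (limma adjusted p = 0.134), and DESeq2 called RRAS lower and SOS1 higher. RRAS also passed limma with a minimum of 5 FPKM (adjusted p = 0.0434), a pseudocount of 0.1 (adjusted p = 0.0480) or quantile normalization (adjusted p = 0.0473). In 14 of 21 settings it did not pass. Of 23 genes of the JNK and p38 cascades, 12 were tested with limma, 3 were reached unadjusted, and MAP3K2 (limma adjusted p = 0.167) and MAPK11 (limma adjusted p = 0.173) were nearest. In edgeR, 6 of 25 and 7 of 23 genes of these lists were reached unadjusted, near the 25.8% of all genes, and DESeq2 called MAP3K1 and MAP2K4 higher in the second.

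Upstream, none of 5 growth factor ligands and none of 8 receptor tyrosine kinases tested with limma passed, with 1 and 2 of them reached at an unadjusted p under 0.05, and with 1 and 3 in edgeR. VEGFA was at 16.5 and 8.63 FPKM in the controls and at 5.004, 5.62 and 4.40 FPKM in siLIX1L (limma adjusted p = 0.0723), and FGF5 had a limma adjusted p of 0.248. EGFR (limma adjusted p = 0.106) and AXL (limma adjusted p = 0.121) were higher in every siLIX1L library than in both controls. DESeq2 called VEGFA lower, and EGFR and KIT higher.

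Downstream, MAPKAPK3, a kinase that p38 and ERK activate, rose from 1.12 and 1.32 FPKM in the controls to 2.80, 2.92 and 2.75 FPKM in siLIX1L (limma adjusted p = 0.0389), the single call among 5 effector kinases tested. Of 11 transcription factors that MAP kinases phosphorylate, none passed limma and 2 were reached unadjusted, ELK4 (limma adjusted p = 0.150) and CIC (limma adjusted p = 0.153). None of 15 passed edgeR, with 3 reached unadjusted, and DESeq2 called ATF3 lower.

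Genes whose pattern over the 5 libraries was most like that of a member were sought among 9633 genes with a mean of at least 10 RPM. Likeness was the root-mean-square difference in log2(RPM + 0.5) after each gene's mean was removed, where smaller is closer. For DUSP1 the nearest were the mitochondrially encoded MT-CO2 at 0.200, CCN1 at 0.223 and EFEMP1 at 0.232, against a median of 1.05 over all genes. MT-CO2 was at 1974 and 3154 RPM in the controls and at 748, 818 and 991 RPM in siLIX1L, the same order of libraries as DUSP1, and the mitochondrial share of reads was higher in both controls than in siLIX1L. Its part in the DUSP1 result was not tested.

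For DUSP4 the nearest patterns were those of TMEM127 at 0.0220, POP1 at 0.0289 and TWF1 at 0.0346, against a median of 0.445. TMEM127 was at 132 and 115 RPM in the controls and at 218, 222 and 187 RPM in siLIX1L. For DUSP6 they were F2R, the thrombin receptor, at 0.103, GINS1 at 0.108 and SLC4A8 at 0.109, against a median of 0.642. F2R was at 119 and 109 RPM in the controls and at 90.3, 95.2 and 46.1 RPM in siLIX1L, with siLIX1L 3 low as for DUSP6. These likenesses rest on 5 libraries that share the same groups.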

How the data were processed

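The authors deposited FPKM per gene for 5 libraries, per the file headers, and for siLIX1L 3 also a read count and a gene length. Bowtie 0.12.2 and mm8, a mouse build at odds with the human Ensembl IDs, are listed in the submitters' processing notes, so aligner, build and annotation are uncertain, and no source states strandedness. Deposited lengths were equal to GENCODE 29 gene spans (GRCh38) for 98.2% of genes, so FPKM is low for genes with long introns. Whole reads were recovered for 100% of values (tolerance 0.01 reads) and were equal to the deposited counts for all 19936 genes of siLIX1L 3. RPM is relative to these totals, and 0 counts would allow 3 reads, 0.164 to 0.202 RPM.

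Groups were compared with limma 3.58.1 in R 4.3.3 on log2(FPKM + 1) for genes at 1 FPKM or more in 2 libraries, two-sided, at a Benjamini-Hochberg adjusted p of 0.05; edgeR 4.0.16 and DESeq2 1.42.0 used recovered reads. The limma, edgeR and DESeq2 fits were tested on simulated reads, with a spread set below that between the 2 real controls. They recovered 65, 62 and 65% of simulated 2-fold changes, with 7, 12 and 19 false calls. The other steps were not tested on simulated data. Members and lists were chosen with earlier results of these data known. Named are all members, LIX1L, per list up to 4 genes past the threshold (otherwise up to 2 by smallest p), EGR1, FOS, IER3 and CCND1, and 3 like genes for DUSP1, DUSP4 and DUSP6. Alternatives were scaling, minimum, pseudocount, tool, block and left-out libraries.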

Additional observations from a re-analysis of the deposited data

How the results depend on the processing

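Limma called 121 of 6464 genes (48 higher, 73 lower), 233 with quantile normalization, and 0 with no minimum level (3407 at an unadjusted p under 0.05), with siLIX1L 1 and 2 averaged (953 unadjusted) or with a length and GC trend removed (1496 unadjusted). DESeq2 called 1673. With each library left out, limma called 0 to 1517 (1517 without control 1, 258 without control 2, and 0 without any siLIX1L library, with 882 to 1764 unadjusted), and edgeR, added after seeing the data, 0 to 2998 against 116 with all libraries (2998 without control 1, 373 without control 2). The pathway lists held 8 calls in limma, 26 in DESeq2, 0 in the 3 settings with no calls, and 0 to 31 with each library left out (0 to 45 in edgeR). LIX1L kept its direction in 18 of 18 settings that tested it. Its groups did not overlap, so leaving out or averaging libraries could not turn the direction. Limma did not test LIX1L when control 1 or control 2 was left out. Its limma adjusted p was 0.103 with no minimum level (difference -0.87), 0.175 with siLIX1L 1 and 2 averaged (-0.89) and 0.0615 with the trend removed (-0.98). Without a siLIX1L library its difference was -0.90 to -0.82 in limma and -2.62 to -2.21 in edgeR (-2.54 without siLIX1L 1), not past the threshold.

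DUSP1 stayed lower in 21 of 21 settings and passed in 9 of them. DUSP4 and DUSP5 stayed higher in 20 of 20, DUSP6 lower in 21 of 21, and SPRY2 and SPRY4 higher in all of theirs. For DUSP1, DUSP4, DUSP5 and DUSP6 the groups did not overlap, so leaving out or averaging libraries could not turn the direction. DUSP14 turned to higher without control 1, at 0.15 in limma and 0.22 in edgeR, and was at -0.54 in limma and -0.63 in edgeR without control 2. No label links libraries with the same number. Deviations of same-numbered libraries from their group means correlated at -0.12 and -0.10 across 6464 genes. The deviations of the 2 controls mirror each other, so these values cannot decide whether same-numbered libraries share a batch. With the replicate number as a block, limma called 94 genes and DUSP1 had an adjusted p of 0.0263, with no other member past the threshold. Number 3 occurs in siLIX1L alone, so siLIX1L 3 added nothing to the difference in this fit. The DUSP1 difference was -2.06, the same as without siLIX1L 3, where limma with no block gave an adjusted p of 0.0715. Depth gave counting intervals narrower than the spread between libraries for DUSP1 and DUSP8, and the small number of libraries limits the precision.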
